A study of Mus musculus with 12 samples.

Results

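The genes described here are the 4 ligand genes of platelet-derived growth factor (PDGF), Pdgfa, Pdgfb, Pdgfc and Pdgfd, and its 2 receptor genes, Pdgfra and Pdgfrb. They were chosen by name, and all 6 were found among the 20661 genes of the count tables. The cells were mouse embryonic fibroblasts (MEFs), primary fibroblasts grown from embryos and used at passage 4. Every culture had been transduced with a lentivirus that carries a short hairpin RNA and selected with puromycin. WT-shSCR cells are wildtype cells with the scrambled control hairpin shSCR. WT-shARF cells are wildtype cells with the hairpin shARF, aimed at the tumor suppressor ARF. Arf-/--shSCR cells carry shSCR and lack ARF because a neo cassette replaces exon 1β of Cdkn2a, the gene that encodes both ARF and INK4A, in all cells of the embryo. Wildtype cells are labelled as strain C57BL/6J and Arf-/- cells as B6.129X1-Cdkn2atm1Cjs/KaiJ, so the strain background and the Arf genotype cannot be told apart. RNA was measured by RNAseq, and ribosome footprints, the pieces of mRNA that a ribosome shields from nuclease, by ribosome profiling. With 3 groups and 2 replicates per group in each assay there were 12 libraries.

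PDGFs are secreted dimers that bind a pair of receptor tyrosine kinases on mesenchymal cells and drive their growth, migration and matrix production. PDGF-A and PDGF-C act mainly through the receptor PDGFRα, PDGF-B binds both receptors, and PDGF-D acts mainly through PDGFRβ. PDGF-C and PDGF-D are secreted in a latent form, and plasminogen activators can remove the domain that blocks them. PDGFRα marks many embryonic mesenchymal cells, and PDGFRβ marks pericytes, smooth muscle cells and cultured fibroblasts. ARF is best known for activating p53 by inhibiting MDM2, and it has also been reported to repress Pdgfrb, for example in perivascular cells of the developing eye. The measurements therefore bear on whether the RNA, the footprints or the translation efficiency (TE, footprints relative to RNA) of these genes differed in the cells that lack ARF and in those that carry shARF.

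Counts on genes ranged from 1578627 to 3989908 per RNA library and from 2544319 to 5157572 per footprint library. Cdkn2a, the targeted gene, stood at 44.8 and 42.0 CPM (counts scaled to the depth of the library) in the RNA of WT-shSCR, 27.7 and 32.2 in Arf-/--shSCR, and 644 and 668 in the libraries labelled WT-shARF. These counts cover the coding exons of ARF and INK4A together. The study shows the knockdown of ARF in such cells by immunoblot and states that shARF does not affect INK4A. The rise of the counts in WT-shARF goes against what a knockdown of ARF would give if the counts were mostly ARF. Each direction in that group is therefore given for the libraries labelled WT-shARF. None of 11 fibroblast markers was at 0 in any library. Their summed RNA stood at 24151 and 27759 CPM in WT-shSCR and 24381 and 24342 CPM in WT-shARF, and lower, at 19206 and 18026 CPM, in Arf-/--shSCR. Their summed footprints stood at 52962 to 59032 CPM in the first 2 groups and at 40136 and 40677 CPM in Arf-/--shSCR. Markers of fibroblasts, macrophages and mesothelial cells thus differed between the groups and are given beside the results they move with. Nothing in the labels says whether replicates were separate cultures, so the p-values measure the spread between these libraries, which may be technical. With 2 replicates against 2, the smallest p an exact permutation test can give is 0.33, and the tests below come from edgeR's quasi-likelihood model over all genes, with Benjamini-Hochberg adjustment and a threshold of 0.05.

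Positions were read from GENCODE M21 on GRCm38, which is mm10, the build of the alignments. Pdgfa lies at chr5:138976014-138997370 on the minus strand and Pdgfb at chr15:79995874-80014977 on the minus strand. Pdgfc lies at chr3:81036416-81214040 and Pdgfd at chr9:6168584-6378850, both on the plus strand. Pdgfra lies at chr5:75152292-75198215 and Pdgfrb at chr18:61045150-61085061, both on the plus strand. The counts cover the coding exons of each gene and no UTR or intron. The combined coding exons span 641 nt in Pdgfa, 723 nt in Pdgfb, 1088 nt in Pdgfc, 1110 nt in Pdgfd, 3393 nt in Pdgfra and 3309 nt in Pdgfrb, so a receptor mRNA yields more counts than a ligand mRNA of the same abundance. Levels are therefore compared between genes only as CPM per kb of coding sequence.

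In the RNA of WT-shSCR cells Pdgfa stood at 44.7 ± 14.8 CPM per kb (SD, n = 2), Pdgfrb at 43.2 ± 9.27 and Pdgfc at 31.7 ± 13.0. The libraries of these 3 genes overlapped, so their order is not resolved. Pdgfb followed at 16.8 ± 0.212 CPM per kb, Pdgfd at 12.2 ± 0.892 and Pdgfra at 0.935 ± 0.247, and these 3 did not overlap with each other or with the genes above them. Among 10046 genes with a level per kb, Pdgfrb lay at the 74.0th percentile of RNA in WT-shSCR and Pdgfra at the 1.01 percentile. In footprints of WT-shSCR the order was Pdgfc at 70.2 CPM per kb, Pdgfrb at 61.7, Pdgfd at 48.7 and Pdgfa at 46.2, each overlapping with the next, and Pdgfb at 9.21 and Pdgfra at 1.33 stood apart below them. WT-shSCR cells thus had almost all of their PDGF receptor reads on Pdgfrb and only 4 to 13 reads per library on Pdgfra. In Arf-/--shSCR cells Pdgfra passed Pdgfb in the order of footprints, at 6.51 against 2.94 CPM per kb with no overlap.

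**Figure D1:**
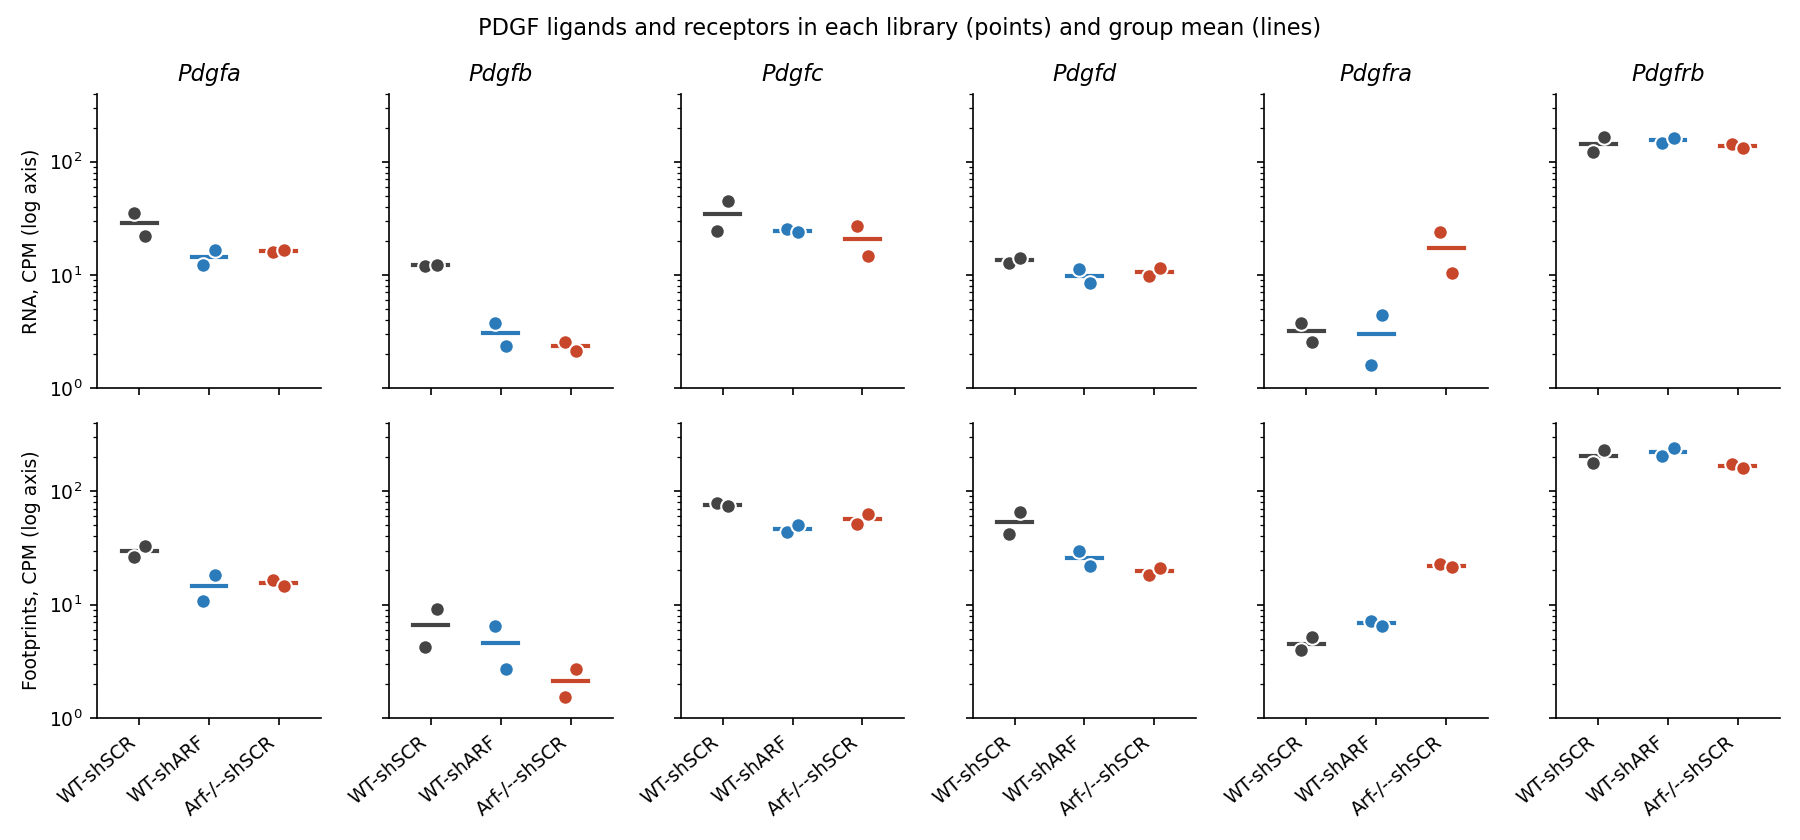
CPM (log axis) of each gene in RNA (upper row) and footprints (lower row), with 1 point per library and a line at the mean of the 2 replicates of each group. Pdgfra is high in the Arf-/--shSCR libraries, at 10.3 and 24.0 CPM in RNA, Pdgfb RNA is high in WT-shSCR, at 12.05 and 12.3 CPM, and Pdgfrb lies between 121 and 165 CPM in every RNA library.

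The comparison of Arf-/--shSCR with WT-shSCR asks how the PDGF genes differed in cells without ARF. Pdgfra rose in RNA and in footprints, Pdgfb fell in RNA, and Pdgfa and Pdgfd fell in footprints. In RNA 2 of the 6 genes were called, 1 higher and 1 lower, where 7.93% of the 10659 genes tested were called, 3.94% higher and 3.99% lower. Both genes called in RNA passed the filter on low counts only through the group in which they were high, so their count is not read against that share. In footprints 3 of 6 were called, 1 higher and 2 lower, against 18.5% of 10737 genes, 9.57% higher and 8.95% lower. In TE none of the 6 was called, against 0.194% of 11314 genes. The median log2 fold change of the 4 ligands was -0.76 in RNA and -1.18 in footprints, while that of all genes tested was -0.00378 and -0.000873.

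Pdgfra, the receptor of PDGF-A and PDGF-C, had 10 and 4 reads in the RNA libraries of WT-shSCR and 66 and 24 in those of Arf-/--shSCR. Scaled for depth this was 3.76 and 2.58 CPM against 24.0 and 10.3 CPM. In footprints it had 12 and 13 reads, or 3.93 and 5.12 CPM, in WT-shSCR, and 118 and 111 reads, or 22.7 and 21.5 CPM, in Arf-/--shSCR. All Arf-/--shSCR libraries lay above all WT-shSCR libraries in both assays, and the footprint replicates lay closer together than the RNA replicates. The log2 fold change was 2.38 ± 0.53 (SE) in RNA, a 5.2-fold rise with an adjusted p of 0.00795, and 2.30 ± 0.393 in footprints, a 4.93-fold rise with an adjusted p of 4.94e-05. In RNA Pdgfra passed the filter on low counts only through the Arf-/--shSCR libraries, and with at least 10 counts required in every library it could not be tested. Without WT-shSCR replicate 1 or replicate 2 the adjusted p was 0.103 and 0.111 in RNA and 0.104 and 0.0874 in footprints. Without Arf-/--shSCR replicate 1, the library with 66 reads, the log2 fold change in RNA was 1.64 with an adjusted p of 0.233.

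The bases before the start of Pdgfra are shown because this gene rose in RNA and footprints alike, and those of Pdgfd and Pdgfc because their footprints fell in a comparison while their RNA changes did not pass the test. RefSeq lists a start for 4 of the 6 genes in the table used here. The 250 bases printed lie directly before it on GRCm38.p6, 5′ to 3′ on the plus strand, and overlap no annotated gene. Those of Pdgfa are not printed because the bases before its listed starts lie within the annotated gene. Capitals mark matches on either strand to any of 4 short motifs, spelled out in the next paragraph and searched separately, and no match overlaps another.
Pdgfra, chr5:75152001-75152250: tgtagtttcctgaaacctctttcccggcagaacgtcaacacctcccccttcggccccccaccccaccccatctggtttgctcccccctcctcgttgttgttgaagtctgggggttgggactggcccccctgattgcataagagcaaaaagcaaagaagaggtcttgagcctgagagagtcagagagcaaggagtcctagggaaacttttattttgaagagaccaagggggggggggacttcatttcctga
Pdgfd, chr9:6168236-6168485: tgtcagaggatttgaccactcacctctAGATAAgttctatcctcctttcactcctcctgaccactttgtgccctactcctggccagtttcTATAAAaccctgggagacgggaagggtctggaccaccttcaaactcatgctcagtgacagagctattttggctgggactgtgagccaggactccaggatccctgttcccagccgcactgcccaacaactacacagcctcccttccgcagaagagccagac
Pdgfc, chr3:81036166-81036415: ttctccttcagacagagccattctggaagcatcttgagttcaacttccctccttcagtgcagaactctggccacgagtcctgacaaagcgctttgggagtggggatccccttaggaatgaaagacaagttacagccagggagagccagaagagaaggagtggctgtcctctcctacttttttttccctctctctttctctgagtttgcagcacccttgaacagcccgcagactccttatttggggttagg

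The search covered the NF-Y box, with the letters CCAAT, which stood in 33.8% of 32851 windows of the same length before RefSeq starts. The Sp1 box, spelled GGGCGG here, stood in 32.7% of these windows. The TATA box, searched for as TATAAA in full, stood in 12.4%, and the GATA motif, searched for as AGATAA in full, stood in 9.99%. None of the 4 motifs stood in the windows of Pdgfra and Pdgfc. The window of Pdgfd held the GATA motif from position -223 and the TATA box from position -160, counted from the listed start. A match describes the letters in the window and is not a mapped binding site.

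Pdgfrb, the receptor reported to be repressed by ARF, was the PDGF gene with the most reads, 255 to 696 per RNA library and 538 to 1159 per footprint library. Its RNA stood at 121 and 165 CPM in WT-shSCR and at 144 and 132 CPM in Arf-/--shSCR, so the knockout libraries lay between the control libraries. The log2 fold change was -0.04 ± 0.18 (SE) with an adjusted p of 0.937. The 95% interval of the fold ran from 0.752 to 1.27, so changes of Pdgfrb RNA within that range are not excluded. In footprints the values were 176 and 232 CPM in WT-shSCR and 173 and 161 CPM in Arf-/--shSCR. Here both knockout libraries lay below both controls, by a log2 fold change of -0.28 ± 0.128 with an adjusted p of 0.138 and a 95% interval of the fold from 0.688 to 0.989.

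Pdgfb, which encodes the ligand that binds both receptors, had 32 and 19 reads in the RNA of WT-shSCR and 7 and 5 in that of Arf-/--shSCR, or 12.05 and 12.3 CPM against 2.55 and 2.15 CPM. The groups did not overlap, and the log2 fold change was -2.34 ± 0.559 (SE), a 5.06-fold fall with an adjusted p of 0.0126. The gene passed the filter on low counts only through the WT-shSCR libraries. Its footprints, at 4.26 and 9.06 CPM in WT-shSCR and 1.54 and 2.71 CPM in Arf-/--shSCR, did not overlap either, with a log2 fold change of -1.61 ± 0.677 and an adjusted p of 0.0999. The RNA call was lost with DESeq2, where the adjusted p was 0.0972, and without WT-shSCR replicate 1 or replicate 2, where it was 0.171 and 0.131.

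Pdgfa, which encodes a ligand of PDGFRα, stood at 26.5 and 32.7 CPM in the footprints of WT-shSCR and at 16.4 and 14.5 CPM in those of Arf-/--shSCR. The knockout libraries lay below the controls, and the log2 fold change was -0.92 ± 0.281 (SE) with an adjusted p of 0.0187. In RNA the values were 35.4 and 21.9 CPM against 16.01 and 16.7 CPM, also without overlap, with a log2 fold change of -0.84 ± 0.324 and an adjusted p of 0.127. The footprint call was lost with DESeq2, where the adjusted p was 0.127. It was lost too when any 1 of the 4 libraries was left out, with an adjusted p of 0.143 without WT-shSCR replicate 1, 0.195 without WT-shSCR replicate 2, 0.0781 without Arf-/--shSCR replicate 1 and 0.162 without Arf-/--shSCR replicate 2.

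Pdgfd, which encodes a latent ligand of PDGFRβ, had 128 and 168 footprints in WT-shSCR and 94 and 109 in Arf-/--shSCR, or 42.0 and 66.2 CPM against 18.1 and 21.1 CPM. The log2 fold change was -1.44 ± 0.234 (SE), a 2.72-fold fall with an adjusted p of 2.43e-05. Its RNA stood at 12.8 and 14.2 CPM in WT-shSCR and 9.83 and 11.6 CPM in Arf-/--shSCR. The RNA libraries did not overlap, but the log2 fold change of -0.33 ± 0.394 had an adjusted p of 0.683. Without WT-shSCR replicate 1 or replicate 2 the adjusted p of the footprint change was 0.0866 and 0.122.

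Pdgfc, which encodes the other latent ligand, stood at 78.3 and 74.4 CPM in the footprints of WT-shSCR and 51.2 and 62.9 CPM in those of Arf-/--shSCR. The groups did not overlap, with a log2 fold change of -0.41 ± 0.168 (SE) and an adjusted p of 0.0885. In RNA the values were 24.5 and 44.5 CPM against 26.9 and 14.6 CPM, which overlapped, with a log2 fold change of -0.68 ± 0.342 and an adjusted p of 0.247. Without Arf-/--shSCR replicate 1 the RNA change was -1.19 with an adjusted p of 0.0329.

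The comparison of the libraries labelled WT-shARF with WT-shSCR asks how the same genes differed in wildtype cells that carry shARF, and it shares its control libraries with the comparison above. Pdgfb fell in RNA, Pdgfa, Pdgfc and Pdgfd fell in footprints, and neither receptor was called. In RNA 1 of the 5 genes tested was called, and it was lower, where 7.28% of 10503 genes were called, 3.11% higher and 4.17% lower. That gene, Pdgfb, passed the filter on low counts only through the WT-shSCR libraries, where it was high, so nothing is read from this count. In footprints 3 of 6 were called, all lower, against 11.1% of 10307 genes, 5.63% higher and 5.5% lower. In TE none of the 6 was called, against 0.0354% of 11289 genes. The ligands had a median log2 fold change of -0.735 in RNA and -0.842 in footprints, beside -0.00117 and -0.00281 for all genes tested.

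Pdgfb RNA had 7 and 10 reads in WT-shARF, or 3.75 and 2.34 CPM, below both WT-shSCR libraries. The log2 fold change was -2.07 ± 0.554 (SE) with an adjusted p of 0.0183, and DESeq2 gave no adjusted p for this gene. Its footprints, at 6.49 and 2.69 CPM, overlapped with the controls, with a log2 fold change of -0.58 ± 0.649 and an adjusted p of 0.666. The RNA call was lost without WT-shSCR replicate 1, WT-shSCR replicate 2 or WT-shARF replicate 2, with an adjusted p of 0.149, 0.0568 and 0.267.

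Pdgfa footprints stood at 10.8 and 18.2 CPM in WT-shARF, below both controls, with a log2 fold change of -0.99 ± 0.318 (SE) and an adjusted p of 0.039. The RNA, at 12.3 and 16.6 CPM, gave -0.98 ± 0.313 and an adjusted p of 0.0509. The footprint call was lost with DESeq2, at an adjusted p of 0.126, and without WT-shSCR replicate 2 or WT-shARF replicate 1, at 0.17 and 0.337. Without WT-shSCR replicate 2 the RNA change was -1.25 with an adjusted p of 0.00523.

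Pdgfd footprints stood at 29.6 and 21.8 CPM in WT-shARF, a log2 fold change of -1.09 ± 0.246 (SE) with an adjusted p of 0.00262. The RNA, at 11.3 and 8.43 CPM, had a log2 fold change of -0.49 ± 0.423 and an adjusted p of 0.569. Pdgfc footprints stood at 43.7 and 49.9 CPM, a log2 fold change of -0.70 ± 0.187 with an adjusted p of 0.0115, and the RNA, at 25.2 and 24.1 CPM, gave -0.45 ± 0.28 and 0.387. The footprint libraries of both genes lay below both controls. The Pdgfd call was lost without WT-shSCR replicate 2 or WT-shARF replicate 2, with an adjusted p of 0.0987 and 0.0695, and the Pdgfc call without WT-shARF replicate 1, at 0.131.

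Of the receptors, Pdgfrb stood at 146 and 163 CPM in the RNA of WT-shARF and at 207 and 240 CPM in footprints, which overlapped with the controls in both assays. The log2 fold change was 0.13 ± 0.16 (SE) in RNA, with an adjusted p of 0.722 and a 95% interval of the fold from 0.87 to 1.37, and 0.14 ± 0.121 in footprints, with an adjusted p of 0.549 and an interval from 0.928 to 1.31. Pdgfra had 3 and 19 reads in RNA, 1.61 and 4.45 CPM, which was too few for the filter, so its RNA was not tested. In footprints it had 20 and 31 reads, 7.22 and 6.42 CPM, above both controls, with a log2 fold change of 0.59 ± 0.602 and an adjusted p of 0.624.

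**Figure D2:**
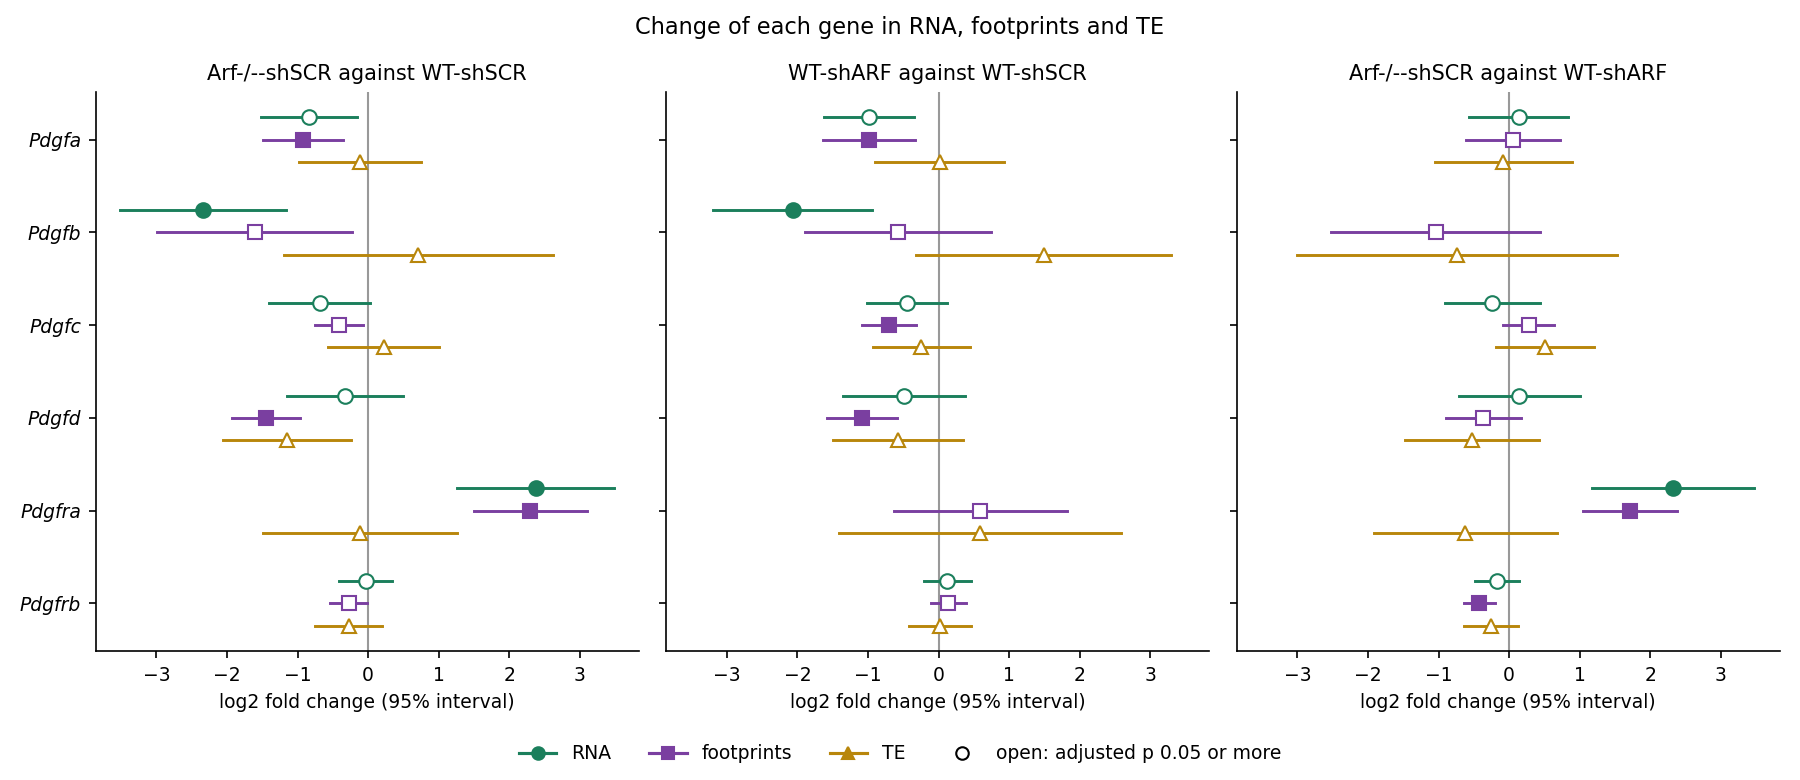
Log2 fold change of each gene in RNA (circles), footprints (squares) and TE (triangles) in the 3 comparisons, with 95% intervals. Filled symbols have an adjusted p under 0.05, and a missing symbol was not tested. Pdgfra lies to the right in the panels of Arf-/--shSCR, at 2.38 and 2.33 in RNA, and no TE change was called.

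Arf-/--shSCR and the libraries labelled WT-shARF were also compared directly, which tests whether the groups without ARF and with shARF differed from each other. Pdgfra was higher in Arf-/--shSCR in both assays and Pdgfrb was lower in footprints, while no ligand was called. In RNA 1 of 5 genes tested was called, against 2.57% of 10632 genes, and in footprints 2 of 6, against 8.23% of 10941. In TE none of 6 was called, against 0.043% of 11632. Pdgfra rose by a log2 fold change of 2.33 ± 0.532 (SE) in RNA with an adjusted p of 0.034, and by 1.71 ± 0.317 in footprints with an adjusted p of 0.00204. In RNA both Arf-/--shSCR libraries but only 1 WT-shARF library reached the level that the filter asks for in 2 libraries. Pdgfrb footprints, at 173 and 161 CPM in Arf-/--shSCR against 207 and 240 CPM in WT-shARF, had a log2 fold change of -0.42 ± 0.106 with an adjusted p of 0.018. Its RNA change of -0.17 ± 0.144 had an adjusted p of 0.626. For the ligands the footprint differences ran from -1.04 ± 0.705 for Pdgfb to 0.28 ± 0.172 for Pdgfc, and Pdgfb RNA had too few reads in these groups to be tested.

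These calls rested on few libraries. Without WT-shARF replicate 1 or replicate 2 the adjusted p of Pdgfra was 0.249 and 0.29 in RNA and 0.293 and 0.298 in footprints, and that of Pdgfrb footprints was 0.324 and 0.349. Without Arf-/--shSCR replicate 1 Pdgfra RNA had an adjusted p of 0.208, and without Arf-/--shSCR replicate 2 Pdgfrb footprints had 0.0642. DESeq2 called both genes in footprints, with an adjusted p of 0.00525 for Pdgfra and 0.0288 for Pdgfrb, and gave none for Pdgfra RNA.

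Summed over the 4 ligands, RNA stood at 84.7 and 92.9 CPM in WT-shSCR, 52.5 and 51.5 CPM in WT-shARF and 55.3 and 45.1 CPM in Arf-/--shSCR. Summed footprints stood at 151 and 182 CPM, 90.6 and 92.6 CPM, and 87.2 and 101 CPM in the same order. Both assays were thus highest in the control libraries, without overlap, and the other 2 groups overlapped. The summed receptors, which are mostly Pdgfrb, ranged from 125 to 168 CPM in RNA and from 180 to 247 CPM in footprints, and all groups overlapped in RNA. No test was made on these sums.

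Within the receptors, Pdgfra made up 2.94% and 1.51% of the RNA per kb in WT-shSCR, 1.06% and 2.59% in WT-shARF and 14.0% and 7.06% in Arf-/--shSCR. In footprints its part was 2.13% and 2.11% in WT-shSCR, 3.29% and 2.54% in WT-shARF and 11.4% and 11.5% in Arf-/--shSCR. Reads per kb on Pdgfrb still outnumbered those on Pdgfra by 6.17 to 13.2 times in the RNA and by 7.69 to 7.80 times in the footprints of Arf-/--shSCR. Within the ligands, Pdgfb made up 15.7% and 16.2% of the RNA per kb in WT-shSCR and 5.50% to 8.99% in the other groups. In footprints Pdgfc was the ligand with the most reads per kb in every library, with 35.7% to 56.0%.

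**Figure D3:**
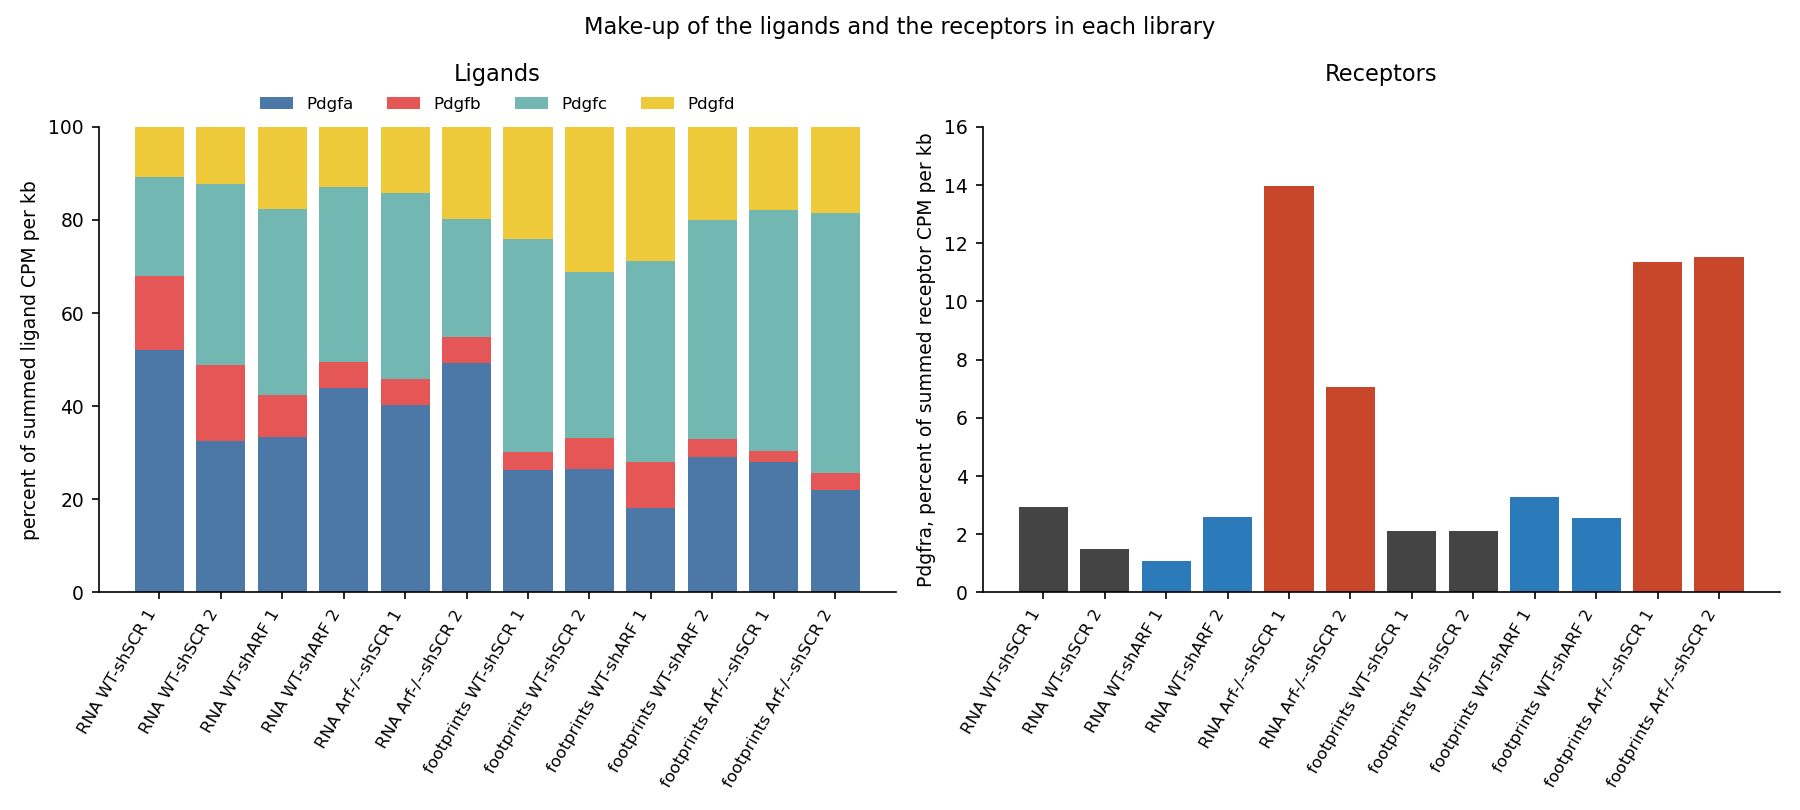
Make-up of the 4 ligands (left, percent of their summed CPM per kb of coding sequence) and the percent of the summed receptor CPM per kb that falls on Pdgfra (right), with 1 bar per library. The Pdgfra bars of the 4 Arf-/--shSCR libraries, at 7.06% to 14.0%, stand above all other libraries, which reach at most 3.29%.

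The TE level of each gene, the log2 ratio of its mean footprint CPM to its mean RNA CPM, differed widely among the 6 genes. In WT-shSCR it was 2.00 for Pdgfd and 1.15 for Pdgfc, the latent ligands, which placed them at the 98.9th and 91.7th percentile of 10362 genes. Pdgfrb, at 0.51, lay at the 74.5th percentile, Pdgfra, at 0.51, at the 74.4th, Pdgfa, at 0.05, at the 53.9th and Pdgfb, at -0.87, at the 17.2th. In Arf-/--shSCR the TE level of Pdgfd was 0.87, at the 86.3th percentile, and that of Pdgfc was 1.46, at the 96.0th. In WT-shARF it was 1.38 for Pdgfd and 0.92 for Pdgfc. Pdgfra lay at percentile 93.3 and Pdgfb at percentile 78.9 in WT-shARF. Both genes had few reads, so their places are uncertain.

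Tested as the interaction of assay and group over 8 libraries, the TE of Pdgfd changed by a log2 fold change of -1.15 ± 0.438 (SE) in Arf-/--shSCR, with an adjusted p of 0.552, and by -0.58 ± 0.451 in WT-shARF, with an adjusted p of 0.865. The fall of Pdgfd footprints was therefore called while the difference between its footprint and RNA changes was not. For Pdgfra the TE change in Arf-/--shSCR was -0.11 ± 0.662 and for Pdgfrb -0.28 ± 0.226, with adjusted p of 0.994 and 0.864. The 95% interval of the TE fold of Pdgfrb ran from 0.596 to 1.14, and that of Pdgfra from 0.357 to 2.4. In WT-shARF the TE changes of the 6 genes ran from -0.58 for Pdgfd to 1.49 ± 0.89 for Pdgfb.

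**Figure D4:**
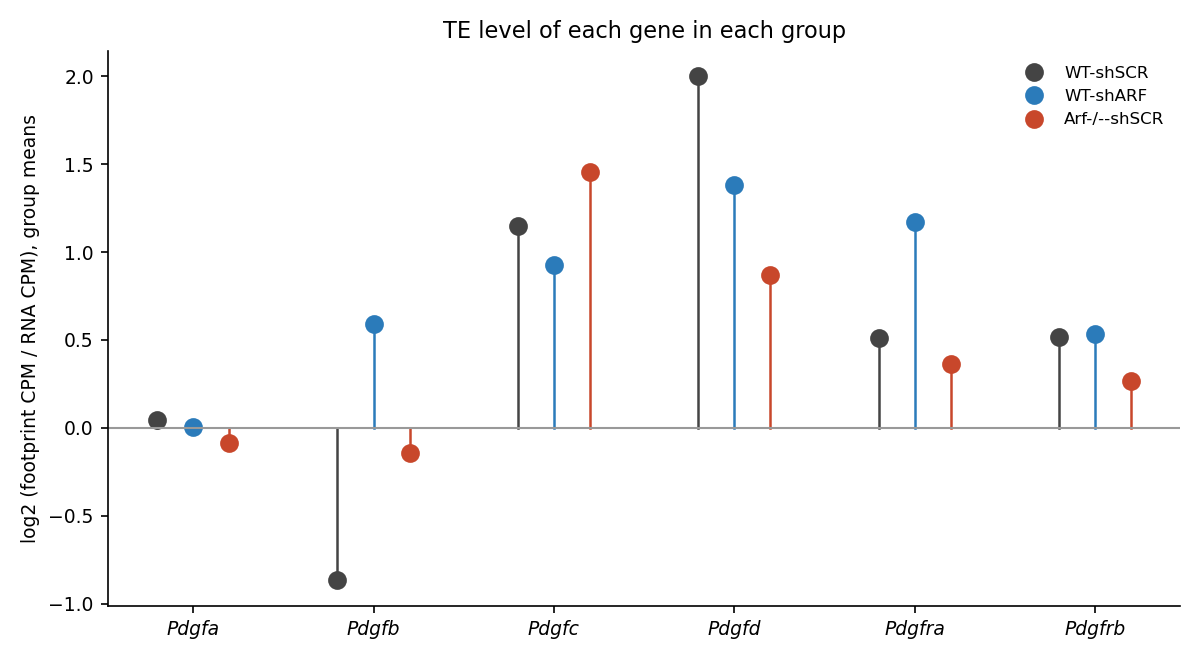
TE level of each gene in each group, as the log2 ratio of mean footprint CPM to mean RNA CPM over the 2 replicates, with 0 where the ratio is 1. Pdgfd lies at 2.00 in WT-shSCR, 1.38 in WT-shARF and 0.87 in Arf-/--shSCR, and none of these differences passed the TE test.

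Markers of other cell types moved with the same groups. In bulk samples, fewer cells of a type and less RNA per cell cannot be told apart. The 18 macrophage markers summed to 844 and 815 CPM in the RNA of WT-shSCR, 418 and 329 CPM in WT-shARF and 89.2 and 142 CPM in Arf-/--shSCR. Of 18 tested in RNA 15 were lower in Arf-/--shSCR and 8 were lower in WT-shARF, and of 17 tested in footprints 17 and 12 were lower. Of all genes tested, 3.99% and 4.17% were called lower in RNA and 8.95% and 5.5% in footprints, in the same order. In the comparison of Arf-/--shSCR with WT-shSCR, 6 of those tested in RNA and 4 of those tested in footprints passed the filter only through WT-shSCR. In that of WT-shARF with WT-shSCR, 3 in RNA and 2 in footprints did so. Markers that passed in this way could hardly be other than lower. At most 2 of the 18 were at 0 in a library. Csf1r, a defining macrophage receptor and a relative of the PDGF receptors, had a log2 fold change of -3.56 ± 0.253 (SE) in the RNA of Arf-/--shSCR and -0.90 ± 0.188 in WT-shARF. Macrophages are a known source of PDGF-B, and Pdgfb RNA was lower in the same 2 groups, at 2.15 to 3.75 CPM against 12.05 and 12.3 CPM in WT-shSCR. The part of these cells in the fall of Pdgfb was not tested.

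The 10 mesothelial and epithelial markers summed to 99.8 and 101 CPM in the RNA of WT-shSCR, 65.4 and 78.01 CPM in WT-shARF and 174 and 192 CPM in Arf-/--shSCR. Of 8 tested in RNA, 4 were higher in Arf-/--shSCR and none lower, and of 8 tested in footprints 7 were higher and none lower. Of those tested, 5 in RNA and 6 in footprints passed the filter only through the Arf-/--shSCR libraries, where they were high, so these directions were largely fixed by the filter and the counts are not read as support. Between 0 and 5 of the 10 were at 0 in a library. In WT-shARF none of 3 tested was higher in RNA and 1 was lower, and none of 2 tested in footprints was called. Pdgfra was high in the same 4 Arf-/--shSCR libraries, and the part of these cells in its rise was not tested.

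Endothelial cells are another source of PDGF-B. Of the 8 endothelial markers, 1 to 3 per RNA library and 1 to 5 per footprint library were at 0. Only 3 were tested in RNA in each comparison with WT-shSCR and 2 between Arf-/--shSCR and WT-shARF. In footprints only 1 was tested in each comparison, and none of those tested was called. Cdh5, a defining endothelial cadherin, was at 0 in the RNA of WT-shSCR and of Arf-/--shSCR, and Pecam1 was at 0 in the footprints of WT-shSCR. The 11 pericyte and smooth muscle markers, cells that express Pdgfrb, summed to 15606 to 15630 CPM in the RNA of WT-shSCR, 9985 to 11329 CPM in WT-shARF and 14785 to 14840 CPM in Arf-/--shSCR. Of 9 tested in RNA, 4 were lower and 1 higher in WT-shARF and none was called in Arf-/--shSCR. In footprints 6 of 9 were lower and 1 higher in WT-shARF, and 4 were lower and 1 higher in Arf-/--shSCR. Of the fibroblast markers, 10 were tested in RNA, with 1 higher and 2 lower in Arf-/--shSCR and 3 higher and 2 lower in WT-shARF. In footprints 3 of 11 were higher and 4 lower in Arf-/--shSCR, and 5 of 10 were higher and 2 lower in WT-shARF. The counts of both lists stand beside the shares of all genes tested. In RNA 3.94% were called higher and 3.99% lower in Arf-/--shSCR, and 3.11% and 4.17% in WT-shARF. For footprints these shares were 9.57% and 8.95% in Arf-/--shSCR, and 5.63% and 5.5% in WT-shARF. In footprints of Arf-/--shSCR the matrix proteoglycan genes Dcn and Lum rose by log2 fold changes of 2.22 ± 0.543 (SE) and 3.5 ± 1.01. The matrix gene Fn1 fell by -0.97 ± 0.046. Col3a1 also rose, by 0.78 ± 0.0806. Fbln2, Col1a2 and Col1a1 also fell, by -0.85 ± 0.058, -0.41 ± 0.0507 and -0.24 ± 0.0464. Dcn was not called between Arf-/--shSCR and WT-shARF. Lum passed the filter only through Arf-/--shSCR. Pdgfra rose in the same libraries, and the part of these differences among fibroblast genes in its rise was not tested.

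**Figure D5:**
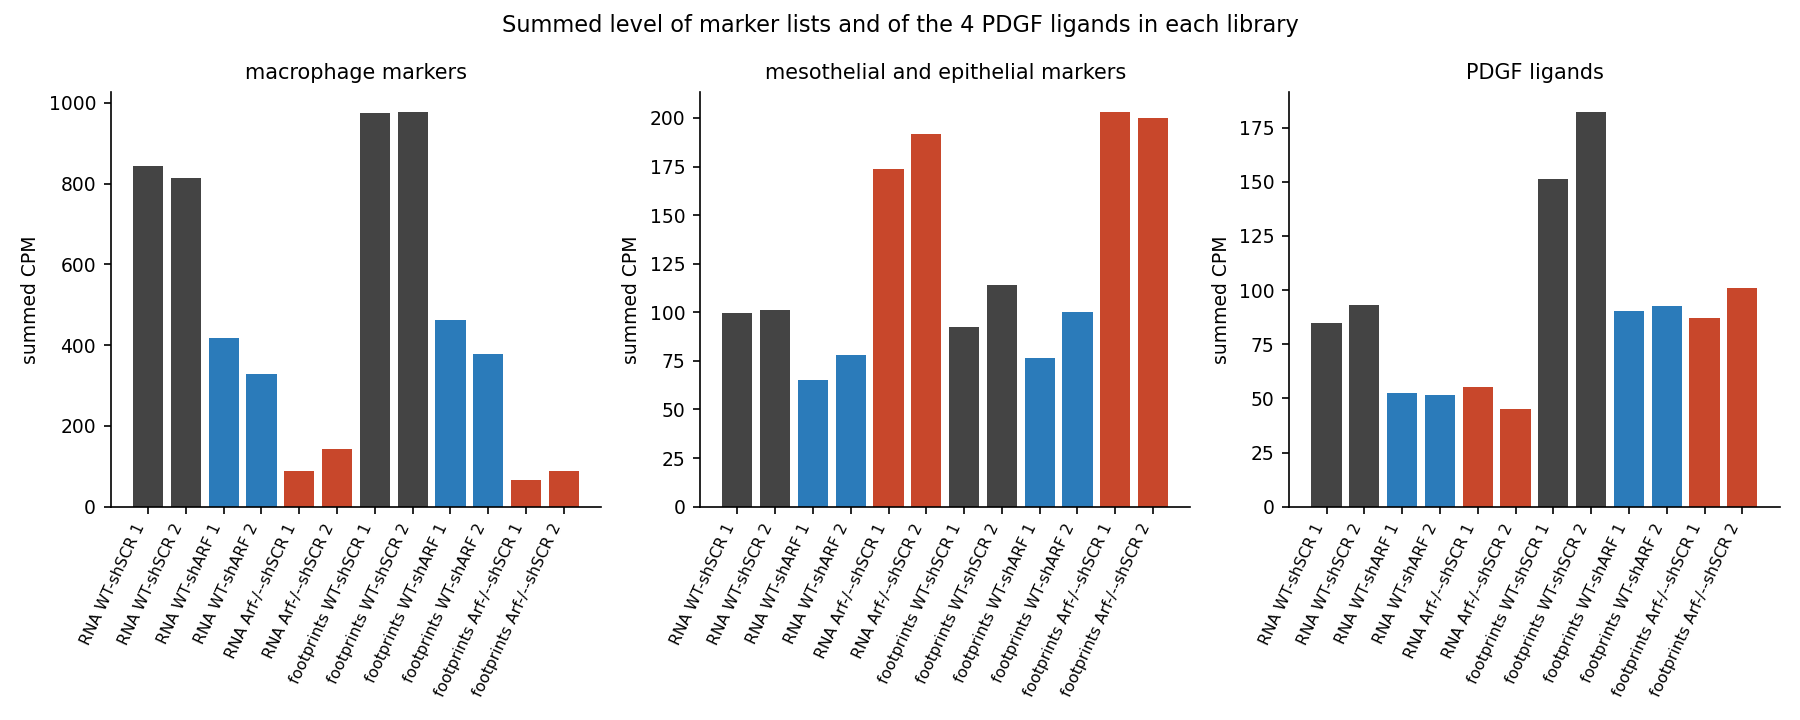
Summed CPM of the 18 macrophage markers (left), the 10 mesothelial and epithelial markers (middle) and the 4 PDGF ligands (right), with 1 bar per library. The macrophage sum falls from 815 to 978 CPM in WT-shSCR to 65.8 to 142 CPM in Arf-/--shSCR, the mesothelial and epithelial sum is highest in Arf-/--shSCR, and the ligand sum is highest in WT-shSCR within each assay.

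Other genes of the pathway were read from lists, ordered here from the ligand inwards. Of the 7 proteases that process PDGFs, none of 5 tested in RNA and none of 6 tested in footprints was called in Arf-/--shSCR. In WT-shARF Plau, the urokinase that activates PDGF-D, fell in RNA by a log2 fold change of -0.84 ± 0.154 (SE) and in footprints by -1.22 ± 0.114. Plat, the tissue plasminogen activator that activates PDGF-C, rose in footprints by 1.07 ± 0.187.

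Of the 8 genes of ligand-binding proteins and co-receptors, 3 were lower and 1 was higher in Arf-/--shSCR, in RNA of 7 tested and in footprints of 8 tested, beside 7.93% of all genes called in RNA and 18.5% in footprints. Lrp1, a large endocytic receptor that associates with PDGFRβ, fell by a log2 fold change of -1.06 ± 0.155 (SE) in RNA and -1.18 ± 0.0691 in footprints. Nrp1, a co-receptor of vascular growth factors that can also bind PDGFs, fell by -0.66 ± 0.15 and -0.77 ± 0.0792. Sparc, a matrix protein that binds PDGF-B, fell by -0.70 ± 0.14 and -0.59 ± 0.0588. Sdc4, a heparan sulfate proteoglycan, rose by 0.62 ± 0.178 and 0.67 ± 0.135. The Sdc4 RNA call was lost with DESeq2, at an adjusted p of 0.13, and with the replicate block, at 0.0535. In WT-shARF only Lrp1 of the 8 tested was called, by -0.56 ± 0.133 in RNA and -0.70 ± 0.064 in footprints. Of all genes, 7.28% were called there in RNA and 11.1% in footprints. The median log2 fold change of the list in Arf-/--shSCR was -0.462 in RNA and -0.367 in footprints.

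Of 36 genes of proximal signalling, which carry the signal from the receptors to the RAS, PI3K and STAT pathways, 3 were lower and none higher in Arf-/--shSCR in each assay. These were Pik3cb, Crkl and Shc1 in RNA and Map2k1, Pik3cb and Plcg1 in footprints. Their log2 fold changes ran from -1.0 ± 0.244 (SE) for Pik3cb RNA to -0.51 ± 0.161 for Plcg1 footprints. The Shc1 call was lost with DESeq2, at an adjusted p of 0.114, and with the replicate block, at 0.0544. In WT-shARF Shc1 and Crkl were lower in RNA, by -0.79 ± 0.154 and -0.71 ± 0.203, and Stat3 was lower in footprints, by -0.57 ± 0.146. The 3 of 36 called in Arf-/--shSCR stand beside 7.93% of all genes in RNA and 18.5% in footprints, and the median of the list was -0.0862 and -0.0692.

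Of the 19 negative regulators, 18 were tested. In Arf-/--shSCR Errfi1, a feedback inhibitor of receptor tyrosine kinases, rose by a log2 fold change of 0.98 ± 0.199 (SE) in RNA and 0.98 ± 0.201 in footprints. Grb10, an adaptor that restrains growth factor signalling, rose in footprints by 0.44 ± 0.0815, while in WT-shARF it fell by -0.52 ± 0.131 in RNA and -0.60 ± 0.0867 in footprints. Ptprj, a phosphatase that acts on PDGFRβ, fell in footprints by -0.96 ± 0.312 in Arf-/--shSCR and -1.04 ± 0.342 in WT-shARF.

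Of 17 classical PDGF-induced fibroblast genes, 1 of 16 tested in RNA was called in Arf-/--shSCR, beside 7.93% of all genes. It was Odc1, the first enzyme of polyamine synthesis, which rose by a log2 fold change of 0.64 ± 0.145 (SE). In footprints 3 of 15 were higher and 2 lower, beside 9.57% of all genes higher and 8.95% lower. Has2, a hyaluronan synthase, rose by 1.2 ± 0.187, Ccl7, a chemokine, by 0.57 ± 0.172 and Odc1 by 0.40 ± 0.125, while Fos fell by -1.46 ± 0.469 and Ptgs2, the inducible cyclooxygenase, by -0.49 ± 0.0763. In the RNA of WT-shARF 2 of 16 were higher and 2 lower, beside 3.11% and 4.17% of all genes. In the footprints of WT-shARF 1 of 15 was higher and 4 lower, beside 5.63% and 5.5%. There Ccnd1, cyclin D1, rose by 0.51 ± 0.145 in RNA and 0.79 ± 0.103 in footprints, and Ptgs2 fell by -1.06 ± 0.143 and -1.47 ± 0.0777. The median log2 fold changes of the list were -0.0472 in RNA and 0.125 in footprints of Arf-/--shSCR.

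Among 14 relatives of the PDGF receptors and ligands, Csf1r fell in RNA and footprints of both other groups, and Csf1, its ligand, fell in footprints of Arf-/--shSCR by a log2 fold change of -0.42 ± 0.089 (SE). Figf, an older symbol of the VEGF-D gene, had a log2 fold change of 2.61 ± 0.832 there and passed the filter only through Arf-/--shSCR, and Flt4, a VEGF receptor, fell in the RNA of WT-shARF by -1.05 ± 0.217. Of 13 other growth factor receptors of fibroblasts, Met rose in RNA by 1.10 ± 0.285 in Arf-/--shSCR and 1.02 ± 0.28 in WT-shARF. Tgfbr2 RNA fell by -1.17 ± 0.22 and -0.65 ± 0.198 in the same order. With DESeq2 the Met call in Arf-/--shSCR was lost, at an adjusted p of 0.152, and Met got none in WT-shARF. The Tgfbr2 call in WT-shARF was lost with DESeq2 too, at an adjusted p of 0.185. In footprints Ddr1, a collagen receptor, fell by -0.47 ± 0.159 in Arf-/--shSCR, and Egfr and Tgfbr1 fell by -0.58 ± 0.109 and -1.06 ± 0.323 in WT-shARF.

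The last list held 11 genes of p53, NF-Y, Sp1 and GATA regulators that can act on the receptor promoters. Mdm2, the p53 inhibitor and p53 target, fell by a log2 fold change of -1.16 ± 0.204 (SE) in RNA and -1.35 ± 0.128 in footprints of Arf-/--shSCR, and by -0.74 ± 0.175 and -0.71 ± 0.119 in WT-shARF. Gata4, a transcription factor of heart and mesothelium, had 1 and 3 reads in the RNA of WT-shSCR and 16 and 17 in that of Arf-/--shSCR, a log2 fold change of 2.72 ± 0.774, and in footprints 3.44 ± 0.891. It passed the filter in both assays only through Arf-/--shSCR, where it was high. The RNA call was lost whichever of the 4 libraries was left out, and DESeq2 gave no adjusted p in RNA and 0.0514 in footprints. Trp53, Nfyc and Sp3 rose in footprints of Arf-/--shSCR by 0.42 ± 0.106, 0.65 ± 0.212 and 0.65 ± 0.222. With DESeq2 their adjusted p was 0.00364, 0.19 and 0.215, so the calls of Nfyc and Sp3 were lost. In WT-shARF Mdm2 was the 1 gene called of 9 tested in each assay, beside 7.28% of all genes in RNA and 11.1% in footprints.

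The genes whose levels most resembled each member across the 12 libraries, after centring log2 CPM within each assay, were listed for description. They were Lta4h, Asl and Htatip2 for Pdgfa, with Pearson's r of 0.946 to 0.949, Bsdc1, B2m and Cog4 for Pdgfb, at 0.935 to 0.969, and Vcl, Tnrc6b and Ctnna1 for Pdgfc, at 0.92 to 0.964. For Pdgfd they were Rps6kb2, Pld2 and Tspan31, at 0.949 to 0.955, for Pdgfra Pphln1, Fnbp1l and Crabp1, at 0.937 to 0.951, and for Pdgfrb Dtna, Rnpepl1 and Lrrc8a, at 0.833 to 0.871. They are the highest of 10367 genes compared, and the libraries share groups and depth. Among the members the ligands correlated with each other at r of 0.451 for Pdgfc and Pdgfd to 0.73 for Pdgfb and Pdgfd, and Pdgfra correlated with the ligands at -0.596 to -0.312.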

How the data were processed

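RNAseq and ribosome profiling libraries of MEFs were deposited as raw counts per gene. The authors clipped adapters, split reads by barcode, took out molecular identifiers and rRNA and other noncoding reads with Bowtie2, mapped what remained onto mm10 (TopHat) and tallied coding-sequence reads per gene (HTSeq). Versions are not given in the sources used here, and no removal of duplicates is stated. RNA had been broken into short fragments, like the footprints. The 5 tally rows of each table were left out.

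The tests were run in R 4.3.3 with edgeR 4.0.16. Genes were kept with filterByExpr, libraries were scaled by TMM, and changes were tested with the quasi-likelihood F test over 4 libraries, or over 8 for TE as the interaction of assay and group, with adjusted p over all genes tested. SE is the log2 fold change divided by the root of F. The 95% intervals use the total degrees of freedom of that test, prior and residual together. CPM uses TMM factors over the 6 libraries of an assay. Pearson's r used a prior count of 2. DESeq2 1.42.0 served as an alternative, with RLE factors, TMM without ribosomal protein genes, other filters, all 3 groups in one fit, a replicate block and leaving out each library. Scripts were tested on simulated data, and plots were drawn with Python 3.11.15 and matplotlib 3.10.9.

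The members and lists were chosen with earlier results of these data known. Named were the 6 members, Cdkn2a, up to 8 called genes per list and comparison by smallest p, the 3 genes most like each member, and markers called or at 0. The labels give C57BL/6J for wildtype cells, while the study's methods name B6129SF2/J.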

Additional observations from a re-analysis of the deposited data

Results flagged for a closer look

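The values below are log2 fold changes of Arf-/--shSCR against the libraries labelled WT-shARF with an adjusted p under 0.05 (edgeR's quasi-likelihood test, Benjamini-Hochberg over all genes), which is the test of the difference between the effects of these groups. Genes of the pathway lists are given here where they were also called in the same assay in a comparison with WT-shSCR, and PDGF genes in any case. Groups of 2 allow no search for outlying libraries. Among the PDGF genes, Pdgfra differed by 2.33 in RNA and 1.71 in footprints, and Pdgfrb by -0.422 in footprints. Among proteases and ligand-binding genes the RNA differed by 0.748 for Plau, -0.668 for Nrp1 and -0.508 for Lrp1. Their footprints differed by 1.03 for Plau, -0.929 for Plat, -0.622 for Nrp1, -0.484 for Lrp1, -0.527 for Sparc and 0.537 for Sdc4. The negative regulator Grb10 differed by 0.924 in RNA and 1.03 in footprints, and Errfi1 by 1.31 and 1.29. Among PDGF-induced genes, Ptgs2 differed by 0.848 and 0.969, Ccnd1 by -0.796 and -0.95, and Ier3 by 1.01 in RNA. Footprints also differed by 0.609 for Ccl7, 0.74 for Has2 and 0.41 for Plaur. Csf1r differed by -2.68 in RNA and -2.67 in footprints, and Csf1 footprints by -0.393. Footprints of Ddr1 differed by -0.806, of Tgfbr1 by 1.53, of Gata4 by 3.41 and of Mdm2 by -0.646. Gata4 passed the filter here only through Arf-/--shSCR, where it was high, so nothing is read from its direction. With DESeq2 its adjusted p was 0.0564. Called between these groups alone were 6 more results. Plat RNA differed by -1.06. The footprints differed by -0.648 for Furin, -0.474 for Gpc1, 0.918 for Egr1, 0.766 for Ccl2 and 1.21 for Spry2. With DESeq2 the call of Plat RNA was lost, at an adjusted p of 0.147. The footprint calls of Gpc1, Egr1, Ccl2 and Spry2 were lost with DESeq2 too, at 0.0988, 0.0664, 0.132 and 0.081.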

How the results depend on the processing

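The number of PDGF genes called in RNA of Arf-/--shSCR against WT-shSCR, 2 as reported, was 1 with DESeq2 and 0 with at least 10 counts in every library, where neither Pdgfra nor Pdgfb could be tested. In RNA of WT-shARF, 1 as reported, it was 2 with no filter and 0 with DESeq2, which gave Pdgfb no adjusted p. In RNA of Arf-/--shSCR against WT-shARF, 1 as reported, it was 0 with DESeq2, which gave Pdgfra no adjusted p. With 1 library left out it ranged from 0 to 2 in RNA and 0 to 2 in footprints of Arf-/--shSCR, from 0 to 1 and 1 to 3 in WT-shARF, and from 0 to 1 and 0 to 2 between these groups, where a lone library is assumed to vary like the others. No call appeared in TE under any alternative, but DESeq2 gave no adjusted p in TE for PDGF genes other than Pdgfrb. Between Arf-/--shSCR and WT-shARF it gave none for Pdgfrb either, so DESeq2 could not call these changes. RLE factors and TMM without ribosomal protein genes kept the direction and call of all 35 changes of PDGF genes. Except for the fewer genes or samples tested, the cause of these moves was not tested.

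The replicate numbers were checked as pairs by correlating the deviations of same-numbered libraries from their group means, which gave r of -0.0323 to 0.018 over all genes tested and -0.129 to 0.0393 over genes with at least 30 counts, so they were not taken as pairs. With the replicate block the count was 2 in RNA of WT-shARF, where Pdgfa gained a call, and 0 in RNA between Arf-/--shSCR and WT-shARF, where Pdgfra lost one, and the others stayed at 2, 3, 3 and 2, with 0 in TE. As the RNA of Arf-/--shSCR correlated at -0.129 and -0.115 with WT-shSCR and WT-shARF over the genes with more counts, a block with crossed numbers was added after seeing the data. It called 2 and 1 PDGF genes, and 1438 and 832 of all genes against 827 and 188 with the numbers as labelled.

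The TE change of Pdgfa and Pdgfra in Arf-/--shSCR turned to 0.014 and 0.018 with no filter, and that of Pdgfa in WT-shARF to -0.086 with the replicate block. Other reversals came from leaving out 1 library, none of them of a called change. In RNA, Pdgfrb ranged from -0.25 to 0.20 in Arf-/--shSCR and from -0.082 to 0.35 in WT-shARF. In footprints of WT-shARF it ranged from -0.052 to 0.35 and Pdgfb from -1.27 to 0.056. Between Arf-/--shSCR and WT-shARF the RNA ranged from -0.028 to 0.40 for Pdgfa, -0.75 to 0.13 for Pdgfc and -0.083 to 0.33 for Pdgfd, and Pdgfa footprints from -0.24 to 0.52. TE ranged from -0.52 to 0.17 for Pdgfa, -0.21 to 0.74 for Pdgfc and -0.56 to 0.63 for Pdgfra in Arf-/--shSCR. In WT-shARF it ranged from -0.47 to 0.32 for Pdgfa, -0.72 to 0.17 for Pdgfc and -0.23 to 0.24 for Pdgfrb. Between these groups it ranged from -0.37 to 0.39 for Pdgfa and -1.69 to 0.14 for Pdgfra. For the other pathway genes, 106 called changes kept their call in 516 of 555 recomputations with all libraries and none reversed, and 21 kept it whichever library was left out. Of the 39 calls lost with all libraries, 29 were lost with DESeq2. In footprints of Arf-/--shSCR these were the calls of Ccl7, Ddr1, Figf, Fos, Gata4, Nfyc, Odc1, Pik3cb, Plcg1, Ptprj and Sp3. In RNA of Arf-/--shSCR they were those of Crkl, Met, Sdc4 and Shc1. For WT-shARF they were Ccnd1, Crkl and Tgfbr2 in RNA and Ier3, Plaur and Tgfbr1 in footprints. Between Arf-/--shSCR and WT-shARF they were Plat in RNA and Ccl2, Ccl7, Egr1, Gata4, Gpc1, Has2 and Spry2 in footprints. In WT-shARF DESeq2 gave no adjusted p for Met RNA or for Fos and Ptprj footprints. Depth limits Pdgfra and Pdgfb most, which had 3 to 20 reads in many libraries.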
